A study of Homo sapiens with 12 samples.

Results

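The effect of sacubitrilat on human cardiomyocytes was averaged over the presence of endothelin-1, from 6 libraries with sacubitrilat and 6 without, as the mean of 2 contrasts: sacubitrilat against vehicle, and sacubitrilat plus endothelin-1 against endothelin-1. All 12 of the 12 libraries in the series entered, 3 in each of 4 groups, grouped by their treatment labels. The labels call the 3 biological replicates and do not say how they were separated, so that p-values measure the spread between these libraries. The cells were derived from an established induced pluripotent stem cell line that is 1 clone, WTC-mEGFP-ACTN2-cl85 (AICS-0075-085), and were enriched in lactate medium. Every group carried a heterozygous mEGFP tag at the C-terminal end of the endogenous ACTN2 gene. For 48 h the cells received 16 µM sacubitrilat (the sacubitrilat libraries), the matching DMSO vehicle (the vehicle libraries), 16 µM sacubitrilat with 10 nM endothelin-1 (the combined libraries) or 10 nM endothelin-1 alone (the endothelin-1 libraries). Poly(A) RNA was counted at its 3′ ends, and levels are given in CPM, a gene's count scaled to the library total.

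Sacubitrilat is the active form of the drug sacubitril and inhibits neprilysin, a membrane peptidase encoded by MME. Neprilysin degrades natriuretic peptides, which cardiomyocytes secrete and which raise cyclic GMP, and it also degrades other peptides, endothelin-1 among them. Endothelin-1 acts through Gq-coupled receptors, raises calcium and enlarges cardiomyocytes. Genes are separated below into those whose direction was shared with and without endothelin-1 and those whose direction was opposed.

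The side of the comparison a library belongs to was balanced for depth only in the sum. Totals ran from 1268308 to 1953122 counts with sacubitrilat and from 80844 to 316932 with vehicle, and from 87281 to 158791 in the combined libraries and from 1473744 to 1781653 with endothelin-1. The sacubitrilat libraries together held 8.06 times the counts of the vehicle libraries, whereas the endothelin-1 libraries held 13.1 times those of the combined libraries. All 6 libraries with sacubitrilat held 0.896 times the counts of the 6 without. The same average is also the mean of a contrast among the deep libraries (sacubitrilat against endothelin-1) and one among the shallow libraries (combined against vehicle), which are given as the depth-matched contrasts. Each of these also differs in endothelin-1, absent with sacubitrilat in the deep one and present with it in the shallow one, and so does not repeat a sacubitrilat contrast. The difference between the 2 sacubitrilat contrasts coincides with the difference between shallow and deep libraries, so these cannot be told apart.

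A pair of facts about the libraries bears on all results. In the 6 libraries given 1 compound, the second description line contradicts the title by giving the other compound. Under that line the contrast reported here, with its 29 called genes, would be the averaged effect of endothelin-1. The averaged effect of sacubitrilat, refitted with these labels exchanged, would call 205 genes. Vehicle replicate 2, the smallest library, stood apart from vehicle replicates 1 and 3, with correlations of 0.644 and 0.653 on the log scale against 0.812 between those. The combined libraries, also shallow, correlated with one another at 0.682, 0.669 and 0.748. In bulk samples, fewer cells of a type and less RNA per cell cannot be told apart.

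Few genes differed in the averaged effect, and most of them were lower with sacubitrilat. Of 11203 tested genes, edgeR's quasi-likelihood test called 29 at an adjusted p under 0.05 (0.259%), 6 higher (0.0536%) and 23 lower (0.205%). Without adjustment, 1133 genes had p under 0.05 (10.1%). The median log2 fold change over all tested genes was -0.04, and the median SE was 0.33. For 5931 genes (52.9%) the 95% interval lay within a 2-fold change either way, and the smallest called change was 0.65 on the log2 scale. With the replicate number as a block, 16 of the 29 were called. The 13 lost under the replicate block were B2M, FTH1, NEBL, TGM2, MLX, ITGB1, SLC8A1, TMSB4X, IGDCC3, PLN, MCRIP1, LTBP1 and CCDC3, with edgeR adjusted p from 0.0538 for B2M to 0.150 for CCDC3. Without vehicle replicate 2 the count was 231 of 13684 tested genes, 37 higher and 194 lower, all 29 among them. Without 1 sacubitrilat library it was 9, 17 or 11, without 1 combined library 35, 15 or 19, without vehicle replicate 1 or 3 19 or 46, and without 1 endothelin-1 library 12, 12 or 9. Those fits tested 7228 to 7272 genes without a sacubitrilat or endothelin-1 library, and 13671 to 14076 without a combined or vehicle library.

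The 29 genes were divided by direction. In 12 genes the 2 sacubitrilat contrasts had the same sign, 11 of them lower (CDKN2A, STC2, FTH1, B2M, CASQ2, TFPI2, LOX, MLX, CCN1, DCBLD2 and BMP4) and 1 higher (ARHGAP22). In 17 genes the signs were opposed, 12 with a lower and 5 with a higher average, and 7 of the 17 passed in both contrasts. Signs near 0 are not firm: without vehicle replicate 2, IGFBP7 and IER3 had the same sign in both contrasts. Over all tested genes, 2155 had the same sign in both contrasts (19.2%). Each contrast by itself called many more genes: 2228 for sacubitrilat against vehicle (19.9%, with 8.68% higher and 11.2% lower) and 3854 for combined against endothelin-1 (34.4%, with 16.6% higher and 17.8% lower). The difference between the contrasts was called for 5163 genes (46.1%, with 20.1% positive and 26% negative). Of the genes called in both, 4 changed in the same direction (0.0357%) and 1698 in opposed directions (15.2%). The across-gene correlation of the 2 contrasts was -0.689, a description over 11203 genes measured in the same libraries.

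**Figure D1:**
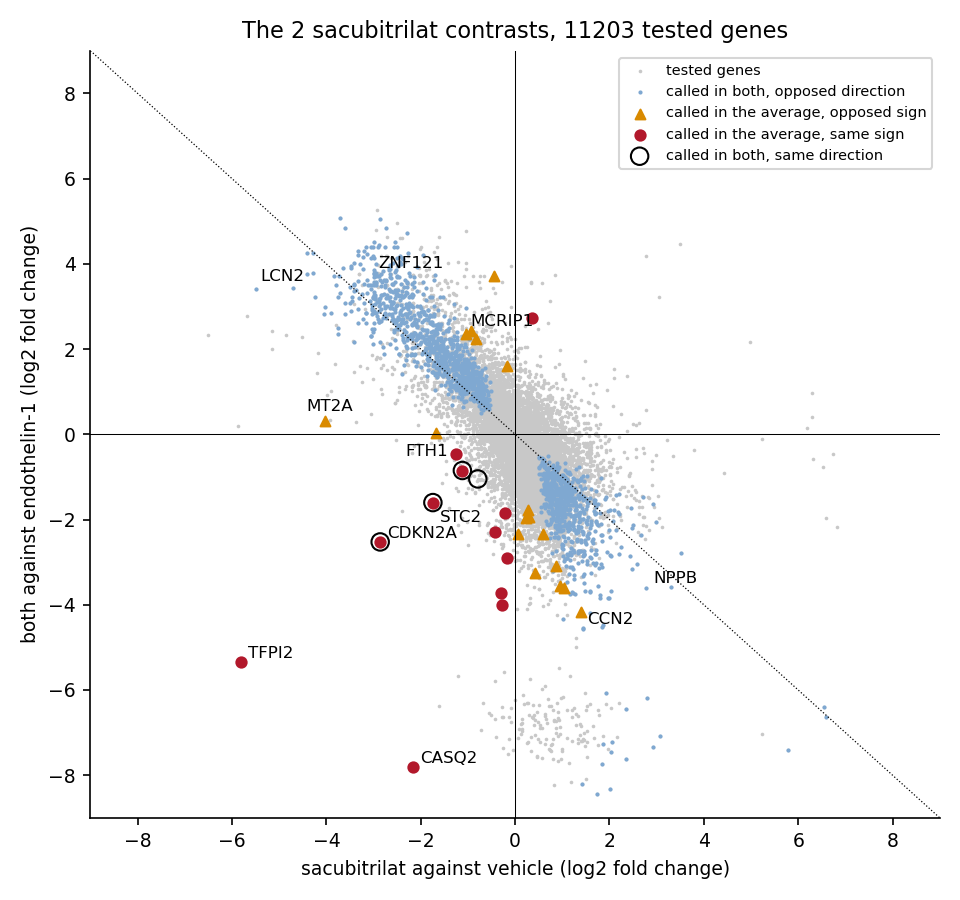
Each point is 1 of 11203 tested genes, with the log2 fold change of sacubitrilat against vehicle on the horizontal axis and of the combined libraries (named both on the axes) against endothelin-1 on the vertical axis; genes on the dotted line have an average of 0. The 1698 opposed genes lie in the upper left and lower right, the 4 ringed genes called in the same direction lie in the lower left. Fitted fold changes of the 131 tested genes with 0 counts in the combined libraries are not bounds.

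The agreeing genes were led by CDKN2A (ENSG00000147889, chromosome 9, 21967753 to 21995301, minus strand, GRCh38 in GENCODE 29), which encodes the cell cycle inhibitor p16INK4a and, from another first exon, p14ARF. It stood at 7.35, 2.37 and 11.3 CPM with sacubitrilat, against 41.0, 74.2 and 64.5 CPM with vehicle. It stood at 11.5, 6.30 and 0 CPM in the combined libraries, against 29.2, 29.9 and 31.4 CPM with endothelin-1. All 6 libraries with sacubitrilat were below all 6 without. CDKN2A fell by 2.69 ± 0.39 on the log2 scale in the average (SE, edgeR adjusted p = 3.13e-04). It fell by 2.86 ± 0.42 against vehicle and by 2.53 ± 0.79 in the combined libraries against endothelin-1 (edgeR adjusted p = 3.33e-06 and 0.0116). These values rest on few reads: 35 counts with sacubitrilat against 30 with vehicle, and 2 in the combined libraries against 150 with endothelin-1. The ratio of those last 2 counts, scaled to the totals, was 0.174 (95% counting interval 0.0209 to 0.640). An opposite-strand gene, CDKN2B-AS1, overlaps CDKN2A, and the strand setting of the counting is not given in the sources used here.

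STC2 (ENSG00000113739, chromosome 5, 173314713 to 173329503, minus strand) encodes stanniocalcin-2, a secreted glycoprotein whose gene responds to endoplasmic reticulum stress through ATF4. It stood at 34.5, 43.4 and 33.8 CPM with sacubitrilat, against 129, 223 and 41.0 CPM with vehicle. In the combined libraries it stood at 11.5, 25.2 and 14.8 CPM, against 58.9, 57.0 and 48.3 CPM with endothelin-1. The combined libraries were all below the endothelin-1 libraries, and vehicle replicate 3 lay just under the highest sacubitrilat library. STC2 fell by 1.67 ± 0.28 on the log2 scale in the average (SE, edgeR adjusted p = 0.00209), by 1.74 ± 0.29 against vehicle and by 1.60 ± 0.55 in the combined libraries against endothelin-1. It was also the 1 gene called in the same direction in both depth-matched contrasts (0.00893%), by -0.69 ± 0.18 among deep libraries and by -2.65 ± 0.55 among shallow ones (edgeR adjusted p = 0.00797 and 0.0253). That count was 0 without any 1 sacubitrilat or endothelin-1 library or combined replicate 1 or 3, and 26 without vehicle replicate 2. STC2 was called in both sacubitrilat contrasts in 8 of 12 fits with a library left out, and CDKN2A in 11, all but that without combined replicate 3.

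The upstream sequences of these leading genes are shown because CDKN2A has a pair of start sites whose transcripts share a 3′ end, which 3′-end counts do not separate. Each is the 250 bases before a start from RefSeq (GRCh38.p14), read on the minus strand 5′ to 3′. The STC2 window lies inside the gene as placed by GENCODE 29, which starts at 173329503, so the 2 annotations differ on that start. Capitals mark a CCAAT box (CCAAT) or an Sp1 GC box (GGGCGG), searched on both strands.
CDKN2A upstream start, chr9:21995325-21995574: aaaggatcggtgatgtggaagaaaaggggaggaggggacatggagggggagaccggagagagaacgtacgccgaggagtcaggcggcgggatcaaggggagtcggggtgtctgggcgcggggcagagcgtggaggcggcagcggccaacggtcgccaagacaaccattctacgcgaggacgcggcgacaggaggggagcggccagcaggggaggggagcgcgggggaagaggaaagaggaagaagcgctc
CDKN2A downstream start, chr9:21974858-21975107: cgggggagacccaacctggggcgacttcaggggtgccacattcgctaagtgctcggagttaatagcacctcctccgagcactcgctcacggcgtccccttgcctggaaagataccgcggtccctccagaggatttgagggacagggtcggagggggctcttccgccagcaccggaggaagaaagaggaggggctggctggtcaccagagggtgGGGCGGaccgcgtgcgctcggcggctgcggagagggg
STC2, chr5:173328415-173328664: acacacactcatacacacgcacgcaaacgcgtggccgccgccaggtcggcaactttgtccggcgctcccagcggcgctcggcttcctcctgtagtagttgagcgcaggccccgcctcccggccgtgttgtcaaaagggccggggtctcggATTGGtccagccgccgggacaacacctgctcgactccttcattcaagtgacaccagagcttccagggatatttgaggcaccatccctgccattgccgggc
The downstream CDKN2A start had 1 GC box and the STC2 start 1 CCAAT box, motifs present in 42.6% and 32.0% of 35116 promoters of that length. Each of these 2 starts also had 1 match, not capitalised, to a metal response element core (TGCGCNC), which is in 16.8% of promoters. Letters of AP-1 (TGANTCA), the cyclic AMP response element (TGACGTCA), the ATF4 and CHOP composite (TGATGNAA) and TEAD (CATTCC) were in none of these 3 windows, and they are in 6.57%, 1.65%, 3.14% and 11.9% of promoters. A match or its absence describes these letters alone.

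FTH1 (ENSG00000167996, chromosome 11, 61959718 to 61967660, minus strand), the ferritin heavy chain that stores iron, was the most abundant agreeing gene. It stood at 812, 713 and 862 CPM with sacubitrilat, against 1133, 3868 and 705 CPM with vehicle. In the combined libraries it stood at 383, 383 and 424 CPM, against 696, 729.8 and 655 CPM with endothelin-1. The combined libraries were all below the endothelin-1 libraries, while vehicle replicate 3 lay below the sacubitrilat libraries and vehicle replicate 2 far above them. FTH1 fell by 0.98 ± 0.21 in the average (SE, edgeR adjusted p = 0.0195, and 0.0724 with the replicate block), and by 1.12 ± 0.27 and 0.85 ± 0.32 in the 2 contrasts. Among deep libraries alone the difference was 0.08 ± 0.26 (edgeR adjusted p = 0.902), and among shallow ones -2.05 ± 0.33 (edgeR adjusted p = 0.00151). The averaged fall was 0.67 ± 0.13 without vehicle replicate 2, and FTH1 was called in both contrasts in 5 of 12 fits with a library left out, not in those without any 1 sacubitrilat library, any 1 endothelin-1 library or vehicle replicate 2. The remaining agreeing gene was an unnamed lncRNA, ENSG00000293060, whose counts were 10.9% to 13.5% of those of FTH1 in every library and were partly fractional, so that the 2 genes may not be separate measurements. It was not called in the average (-0.92 ± 0.23, edgeR adjusted p = 0.0813).

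B2M (ENSG00000166710, chromosome 15, 44711487 to 44718877, plus strand), the light chain of MHC class I, and CASQ2 (ENSG00000118729, chromosome 1, 115700007 to 115768781, minus strand), which binds calcium in the sarcoplasmic reticulum, were the other called genes without overlap of the 6 and 6 libraries. Of all tested genes, 20 had no overlap (0.179%), and 3 of them were called (0.0268%). B2M stood at 133, 84.4 and 87.6 CPM with sacubitrilat, against 155, 544 and 193 CPM with vehicle, and at 126, 94.5 and 119 CPM in the combined libraries, against 159, 143 and 144 CPM with endothelin-1. It fell by 0.86 ± 0.19 in the average (SE, edgeR adjusted p = 0.0248, and 0.0538 with the replicate block). The part against endothelin-1, -0.47 ± 0.32, did not pass (edgeR adjusted p = 0.254). The class I heavy chain genes HLA-B (-0.48 ± 0.25) and HLA-C (-0.34 ± 0.24) did not pass in the average either (edgeR adjusted p = 0.506 and 0.646).

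CASQ2 was near the floor in all groups but 1. Its libraries stood at 1.47, 2.37 and 2.05 CPM with sacubitrilat, against 9.47, 12.4 and 5.86 CPM with vehicle, and at 0 in all 3 combined libraries, against 29.2, 38.0 and 25.6 CPM with endothelin-1. It had 9 counts with sacubitrilat against 5 with vehicle, and 0 in the combined libraries against 152 with endothelin-1, which is at least 3.88-fold lower (floor of 3 counts over the group). Its average passed (edgeR adjusted p = 0.0164), while the difference from vehicle alone, -2.17 ± 0.87, did not (edgeR adjusted p = 0.0720). Among deep libraries, where depth was alike, CASQ2 fell by 3.98 ± 0.33 with sacubitrilat against endothelin-1 (edgeR adjusted p = 1.73e-11).

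**Figure D2:**
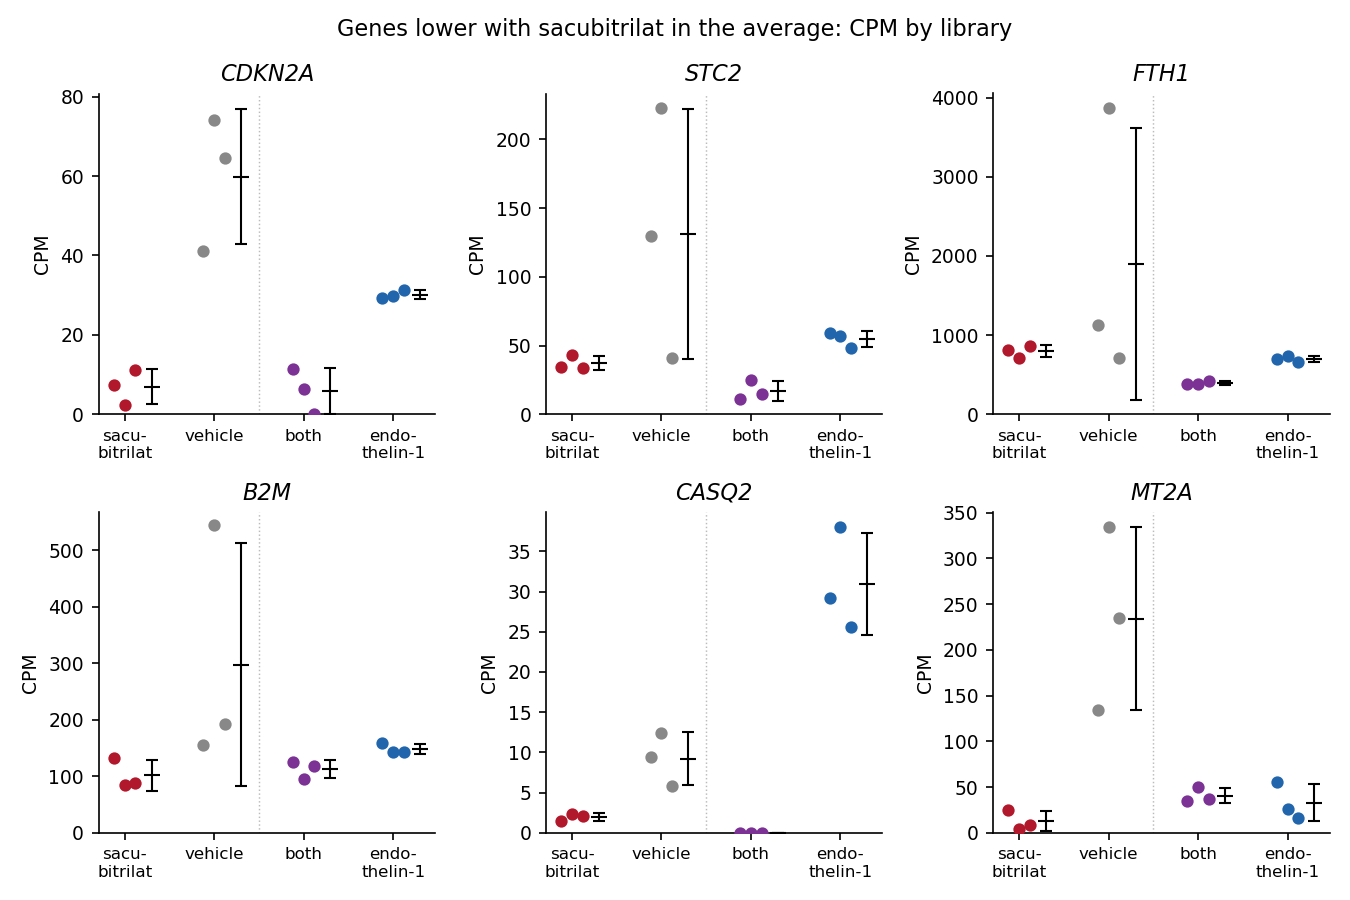
CPM by library (points) with the group mean and SD (bar, n = 3) for 6 genes lower with sacubitrilat in the average, each vertical axis starting at 0 (bars reaching below it are cut) and the dotted line separating the 2 contrasts. In CDKN2A, B2M and CASQ2 the libraries with sacubitrilat lie below all those without. Vehicle replicate 2 is the highest library for STC2 (223 CPM), FTH1 (3868 CPM), B2M (544 CPM) and MT2A (334 CPM). Of the 2 contrasts, MT2A separates the groups only in sacubitrilat against vehicle.

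TFPI2, a secreted inhibitor of serine proteases, stood at 8.81, 0.789 and 2.56 CPM with sacubitrilat against 161, 779 and 35.2 CPM with vehicle. It had 0 counts in the combined libraries against 27 with endothelin-1, too few for a test to pass (-5.34 ± 5.14, edgeR adjusted p = 0.439, beside -5.80 ± 0.55 against vehicle), and its average was just inside the threshold (edgeR adjusted p = 0.0413). The combined libraries were at least 26.8-fold lower than vehicle (0 against 120 counts, floor of 3 counts over the group), and the spread among the vehicle libraries exceeded their mean.

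LOX (lysyl oxidase, which crosslinks collagen and elastin), MLX (a glucose-responsive transcription factor partner), CCN1 (a matricellular YAP target), DCBLD2 (a membrane receptor) and BMP4 (a growth factor of cardiac mesoderm) fell in the combined libraries against endothelin-1 and did not pass against vehicle. LOX stood at 0, 6.30 and 7.41 CPM in the combined libraries against 82.5, 96.4 and 75.0 CPM with endothelin-1, and LOX was also lower with sacubitrilat than with endothelin-1 among deep libraries (-1.97 ± 0.16, edgeR adjusted p = 6.44e-12). In the combined libraries against endothelin-1 the log2 fold change was -2.91 ± 0.52 for CCN1, -1.84 ± 0.34 for BMP4 and -2.29 ± 0.48 for DCBLD2. Among deep libraries it was -0.36 ± 0.13 for CCN1, -0.42 ± 0.12 for BMP4 and -0.34 ± 0.14 for DCBLD2 (edgeR adjusted p = 0.0706, 0.0204 and 0.108). For MLX, 1 count in the combined libraries against 178 with endothelin-1 gave a ratio of 0.0734 (95% counting interval 0.00185 to 0.414). Among deep libraries MLX was not lower, with a log2 fold change of 0.23 ± 0.15 (edgeR adjusted p = 0.415). The average of MLX passed in 3 of 12 fits with a library left out. ARHGAP22, a GTPase-activating protein of Rac, was the 1 same-sign gene that was higher, with 11.5, 25.2 and 96.3 CPM in the combined libraries against 8.42, 2.71 and 8.72 CPM with endothelin-1, and its averaged difference was 1.55 ± 0.34 (edgeR adjusted p = 0.0287). Without combined replicate 3 it was 0.88 ± 0.47 (edgeR adjusted p = 0.573), and it passed in 5 of 12 fits with a library left out. DCBLD2, MLX, TFPI2, BMP4, ARHGAP22 and the unnamed lncRNA were named after their values were seen.

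Genes called in the average with opposed signs included genes of contraction, calcium handling and matrix. PLN, phospholamban, the inhibitor of the sarcoplasmic reticulum calcium pump, stood at 375, 398 and 427 CPM with sacubitrilat, against 278, 0 and 135 CPM with vehicle. In the combined libraries it stood at 34.4, 88.2 and 29.6 CPM, against 629, 652 and 679.9 CPM with endothelin-1. PLN rose by 1.03 ± 0.28 against vehicle and fell by 3.61 ± 0.39 in the combined libraries against endothelin-1, which left an average of -1.29 ± 0.27 (SE, edgeR adjusted p = 0.0164, and 0.102 with the replicate block). The sodium-calcium exchanger gene SLC8A1 (0.95 ± 0.25 and -3.56 ± 0.41) and the Z-disc gene NEBL (0.87 ± 0.23 and -3.10 ± 0.33) had the same pattern. CCN2, connective tissue growth factor, rose by 1.39 ± 0.25 against vehicle and fell by 4.16 ± 0.35 against endothelin-1, with an average of -1.39 ± 0.27 (edgeR adjusted p = 0.0142). It was also lower among deep libraries, by -1.01 ± 0.12 (edgeR adjusted p = 1.09e-07).

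Another 6 genes of this kind passed in the combined contrast alone: MYOZ2, the calcineurin-binding calsarcin-1, LTBP1, which holds latent TGF-beta, IGFBP7, a secreted binding protein, TGM2, transglutaminase 2, TMSB4X, thymosin beta-4, and ITGB1, the integrin beta-1 chain. IGFBP7 had the second lowest adjusted p of the average. It stood at 326, 308 and 325 CPM with sacubitrilat, against 335, 111 and 339.9 CPM with vehicle, and at 218, 246 and 141 CPM in the combined libraries, against 989, 988 and 996 CPM with endothelin-1. Sacubitrilat and vehicle overlapped, and all combined libraries were below all endothelin-1 libraries. IGFBP7 fell by 1.14 ± 0.18 in the average (edgeR adjusted p = 5.86e-04), by 2.33 ± 0.25 against endothelin-1 and by 1.75 ± 0.18 among deep libraries, while the difference against vehicle was 0.05 ± 0.23.

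MT2A and IER3 showed the reverse arrangement: of the 2 sacubitrilat contrasts, they fell only in that against vehicle. MT2A, a metallothionein that binds zinc and copper, stood at 24.97, 4.34 and 8.70 CPM with sacubitrilat, against 134, 334 and 234 CPM with vehicle, and at 34.4, 50.4 and 37.1 CPM in the combined libraries, against 55.3, 26.5 and 16.3 CPM with endothelin-1. It fell by 4.03 ± 0.39 against vehicle and differed by 0.31 ± 0.63 in the combined contrast, an average of -1.86 ± 0.31 (edgeR adjusted p = 0.00209). IER3, an early response gene, stood at 40.4, 41.8 and 53.8 CPM with sacubitrilat, against 136, 136 and 147 CPM with vehicle. It fell by 1.67 ± 0.22 against vehicle and differed by 0.03 ± 0.29 in the combined contrast. Both genes were also lower with sacubitrilat than with endothelin-1 among deep libraries. The log2 fold change there was -1.52 ± 0.345 for MT2A and -0.76 ± 0.14 for IER3 (edgeR adjusted p = 0.00195 and 1.40e-04). In combined against vehicle libraries it was -2.20 ± 0.54 and -0.87 ± 0.32 (edgeR adjusted p = 0.0620 and 0.249).

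The 5 genes with a higher average and opposed signs were ITGA3 (the integrin alpha-3 chain), MCRIP1 (a corepressor-interacting protein), CCDC3 (a secreted protein), IGDCC3 (an immunoglobulin superfamily receptor) and LHX1 (a LIM homeobox factor of kidney and neural development). ITGA3 stood at 282, 329 and 327 CPM with sacubitrilat, against 309, 384 and 352 CPM with vehicle, and at 269, 502 and 539 CPM in the combined libraries, against 152, 149 and 145 CPM with endothelin-1. The endothelin-1 libraries were below all other libraries. Its average was 0.71 ± 0.13 (edgeR adjusted p = 0.00335), from -0.17 ± 0.17 against vehicle and 1.59 ± 0.19 against endothelin-1. MCRIP1, CCDC3 and IGDCC3 fell against vehicle by 1.04 ± 0.22, 0.94 ± 0.24 and 0.83 ± 0.21 and rose in the combined libraries against endothelin-1 by 2.35 ± 0.20, 2.43 ± 0.25 and 2.24 ± 0.28. Without combined replicate 3, at 1015 CPM against 149 and 529 CPM in the other combined libraries, the average of CCDC3 was 0.36 ± 0.16 in place of 0.74 ± 0.17 (edgeR adjusted p = 0.468). IGFBP7, TGM2, TMSB4X, ITGB1, MT2A and these 5 genes were named after their values were seen.

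**Figure D3:**
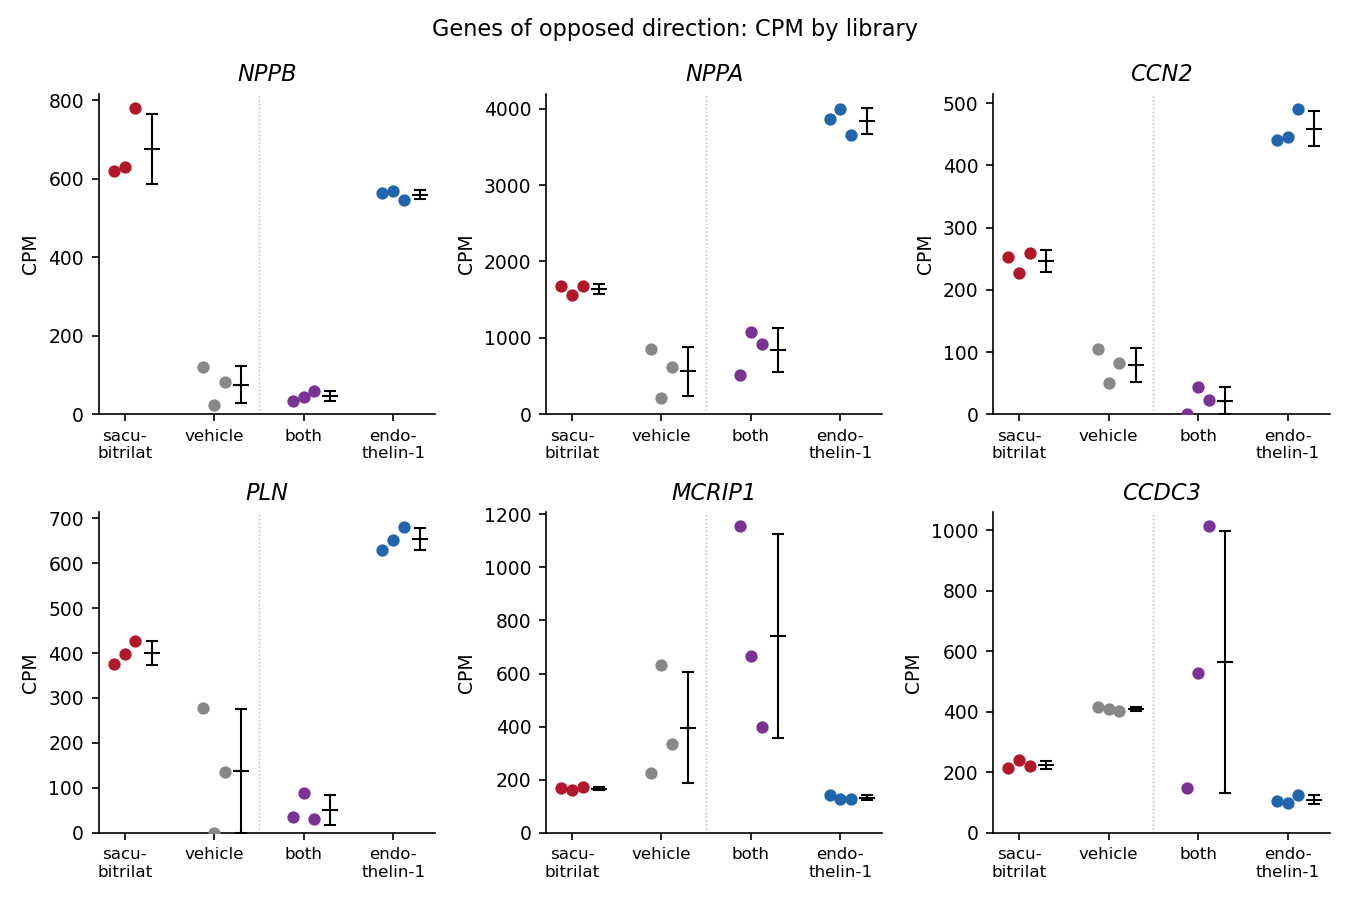
CPM by library (points) with the group mean and SD (bar, n = 3) for 6 genes of opposed direction, each vertical axis starting at 0 and the dotted line separating the 2 contrasts. NPPB, NPPA, CCN2 and PLN are higher with sacubitrilat than with vehicle and lower in the combined libraries than with endothelin-1, and MCRIP1 and CCDC3 have the reverse order of means.

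Opposed genes were the rule among all genes called in both contrasts. Of the 1698, 692 were higher against vehicle and lower against endothelin-1 (6.18%), and 1006 were lower against vehicle and higher against endothelin-1 (8.98%). Each of the 692 was thus higher in the deep libraries of its contrasts, and each of the 1006 higher in the shallow ones. With the log2 library total as a covariate, 13 genes were called in opposed directions and 0 in the same direction. The total differs mainly between deep and shallow groups, so this fit cannot separate depth from the difference between the contrasts. With every library thinned to 80000 counts, 338 of 1846 tested genes were opposed.

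The first kind was led by NPPB, the gene of brain natriuretic peptide, at 619, 629.6 and 779.8 CPM with sacubitrilat against 119.9, 24.7 and 82.0 CPM with vehicle, and at 34.4, 44.1 and 59.3 CPM in the combined libraries against 564, 568 and 547 CPM with endothelin-1. Neither contrast had overlapping groups, and sacubitrilat and endothelin-1 were close. NPPB rose by 2.78 ± 0.25 and fell by 3.60 ± 0.33, so that the average was -0.41 ± 0.26 (SE, edgeR adjusted p = 0.607). ELAPOR2, an endosome-lysosome protein, RASD1, a Ras-like small G protein, IDH3A, a subunit of mitochondrial isocitrate dehydrogenase, PKDCC, a secreted tyrosine kinase, HOXB2, a homeobox factor, TRIM23, a ubiquitin ligase, and MAGED4 followed. These 7 genes had 1 to 4 counts in the combined libraries, 4 to 10 with vehicle, and 152 or more in each deep group.

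The second kind was led by transcripts of epithelium rather than of heart: LCN2 (lipocalin-2), EPCAM (an epithelial adhesion molecule), CLDN4 (a tight junction protein) and AGR2 (a disulfide isomerase of mucous cells), with the zinc finger gene ZNF121 and the noncoding genes LINC01133, REV3L-IT1 and LENG8-AS1. Several of these had nearly the same count in libraries with totals between 80844 and 1953122. LCN2 differed from them in the vehicle libraries, with 16 counts with sacubitrilat against 87 with vehicle (38, 46 and 3 by replicate). In its other contrast the counts were alike, 13 in the combined libraries against 15 with endothelin-1. ZNF121 had 113, 143 and 176 counts with sacubitrilat against 138, 113.5 and 129 with vehicle, and 122, 149 and 130 in the combined libraries against 143, 103 and 151.5 with endothelin-1. EPCAM had between 10 and 22 counts and AGR2 between 8 and 24 counts in each of the 12 libraries. As shares of the totals these steady counts became opposed changes: ZNF121 differed by -3.00 ± 0.21 against vehicle and by 3.70 ± 0.21 in the combined libraries against endothelin-1.

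Steady counts were looked for across the table after these values were seen, as group sums whose highest was at most 1.5 times the lowest. A gene with steady counts is by construction lower against vehicle and higher against endothelin-1, since the totals differ that way. Of 11203 tested genes, 70 had them (0.625%), and 62 of these were called so, a small part of the 1006 such genes (6.16%). They included PIGR, the receptor that carries immunoglobulin across epithelium, with 22 to 53 counts per library, the immunoglobulin kappa constant gene IGKC with 14 to 36, and the epithelial genes PHGR1, TSPAN8 and AREG. Summed over their 3 libraries, IGKC had 79 counts with sacubitrilat and 70.5 with vehicle, and 75.5 in the combined libraries and 84 with endothelin-1. Of the 62 genes, 21 were protein-coding, 20 lncRNA and 15 processed pseudogenes. The median ratio of highest to lowest group sum was 16.9 over all tested genes. It was 3.76 over the 1006 genes as a set, and 41.2 over the 692 opposed genes of the other orientation.

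**Figure D4:**
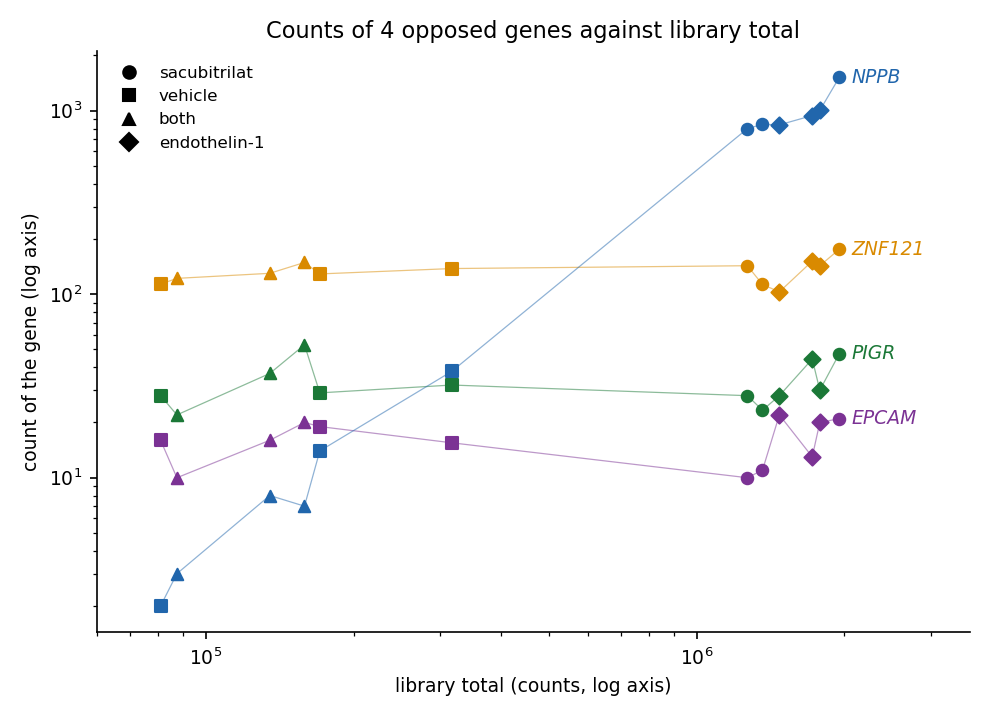
Counts of 4 opposed genes in each of the 12 libraries (symbols by group) against the library total, both axes logarithmic, with lines joining the points of a gene in order of total. NPPB rises from 2 counts in the smallest library to 1523 in the largest, by more than the total does (24.7 and 779.8 CPM). ZNF121 (103 to 176 counts), PIGR (22 to 53) and EPCAM (10 to 22) stay level.

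The marker list of endoderm and liver, a lineage other than heart, moved with this kind of gene. Its summed level was 70.5 to 83.1 CPM with sacubitrilat against 254 to 915 CPM with vehicle, and 598 to 802 CPM in the combined libraries against 70.2 to 107 CPM with endothelin-1. Of 16 markers, 8 were tested, 7 passed as lower against vehicle, 7 as higher in the combined libraries against endothelin-1 and 0 in the average (median 0.23). The summed level of immune markers was 21.3 to 28.6 CPM with sacubitrilat against 50.5 to 167 CPM with vehicle, and 97.4 to 189 CPM in the combined libraries against 13.7 to 19.6 CPM with endothelin-1. The part of these transcripts in the opposed changes was not tested.

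The depth-matched contrasts gave another view of the same average. Sacubitrilat against endothelin-1 called 1257 genes (11.2%), 535 higher (4.78%) and 722 lower (6.44%), and combined against vehicle called 20 (0.179%), 9 higher (0.0803%) and 11 lower (0.0982%). Besides STC2, 7 genes were called in both and in opposed directions (0.0625%). All 4 pairings of a library group with sacubitrilat and one without had the same sign for 1308 genes (11.7%), and for 10 of the 29 called in the average. With the 2 libraries under 100000 counts left out, 18 genes were called in the same direction in both depth-matched contrasts.

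The genes of the neprilysin system were not called in the average. MME itself was at 2.20, 7.10 and 4.61 CPM with sacubitrilat against 9.47, 12.4 and 11.7 CPM with vehicle, and at 0, 12.6 and 7.41 CPM in the combined libraries against 2.81, 4.75 and 4.65 CPM with endothelin-1. It had 21, 6, 3 and 20 counts in these groups and was too low to test, as were NPR2 and NPR3 (receptors of natriuretic peptides), DPP4, PHEX, NPPC, ECE2 and OSTN. Of 15 members of the list of natriuretic peptides, their receptors and neprilysin, 7 were tested, and 0 were called in the average, 3 higher against vehicle, and 5 lower in the combined libraries against endothelin-1. The averages of CORIN and FURIN, which process the peptide precursors, were -1.15 ± 0.41 and -0.41 ± 0.30 (edgeR adjusted p = 0.257 and 0.667), that of the endothelin-converting enzyme ECE1 was -0.76 ± 0.24 (edgeR adjusted p = 0.179), and that of the receptor gene NPR1 was 0.11 ± 0.89.

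Among the hypertrophy genes of the panel other than CCN2, 0 were called in the average, and several turned on the 2 libraries under 100000 counts. NPPA, the gene of atrial natriuretic peptide, stood at 1682, 1566 and 1684 CPM with sacubitrilat against 855, 210.3 and 615 CPM with vehicle, and at 516, 1077 and 919 CPM in the combined libraries against 3866, 3992 and 3650.0 CPM with endothelin-1. It rose by 1.36 ± 0.31 and fell by 2.20 ± 0.31 in these contrasts, with an average of -0.42 ± 0.22 (95% interval -0.86 to 0.02, edgeR adjusted p = 0.508). MYH6, the alpha myosin heavy chain, averaged -0.02 ± 0.15 (95% interval -0.33 to 0.29), and MYH7, the beta chain, -0.25 ± 0.18 (95% interval -0.61 to 0.11), with reads that may not be separable between these near-identical neighbours. MYH7 passed in neither contrast (-0.36 ± 0.25 and -0.13 ± 0.25), although it fell by 1.58 ± 0.25 with sacubitrilat against endothelin-1 among deep libraries, beside 1.08 ± 0.26 in combined against vehicle libraries (edgeR adjusted p = 0.0607). ACTA2, smooth muscle actin, averaged -0.73 ± 0.18 (edgeR adjusted p = 0.0794), and ANKRD1, a stretch-responsive repeat protein, -0.56 ± 0.19 (edgeR adjusted p = 0.212). ACTA2 passed under 5 of 23 alternatives: RLE scaling (edgeR adjusted p = 0.0479), no filter (0.0171), DESeq2 (0.0122), without the 2 small libraries (3.40e-05) and without vehicle replicate 2 (9.36e-05). Without the 2 small libraries NPPA (-0.50 ± 0.10), MYH7 (-0.47 ± 0.08) and ANKRD1 (-0.70 ± 0.11) passed as well (edgeR adjusted p = 0.00128, 3.10e-04 and 1.04e-04), and MYH7 was then lower in both contrasts by test. Without vehicle replicate 2, NPPA and ANKRD1 passed (edgeR adjusted p = 0.0121 and 3.47e-04). The averages of ACTA1 (skeletal actin), RCAN1 (a calcineurin target) and EDNRA (the endothelin A receptor) were -0.05 ± 0.23, -0.31 ± 0.30 and -0.24 ± 0.34. EDN1 had 79 counts with sacubitrilat against 2 with vehicle and 2 in the combined libraries against 120 with endothelin-1, and its average was -0.02 ± 1.15 (95% interval -2.35 to 2.30). Among deep libraries NPPA (-1.34 ± 0.29), ACTA2 (-1.07 ± 0.18), ANKRD1 (-0.81 ± 0.21) and RCAN1 (-0.56 ± 0.13) were also lower with sacubitrilat, and ACTA1 was higher (0.58 ± 0.13). Their edgeR adjusted p was 0.00101, 3.81e-05, 0.00866, 0.00305 and 0.0015. NPPB, MYH6, EDNRA and EDN1 did not pass there (edgeR adjusted p from 0.0754 for EDN1 to 0.877 for MYH6). In combined against vehicle libraries none of these genes passed.

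Of 42 gene lists (1009 genes, 799 tested), 11 held a called gene, and in each the called genes were lower. Among 43 tested matrix genes and targets of TGF-beta, 3 were called, all lower (CCN2, LOX and LTBP1, median -0.36), beside 0.205% lower among all tested genes and a median of -0.04. Of 27 targets of YAP, SRF and MRTF, 2 were called, both lower (CCN1 and CCN2, median -0.44), and of 22 calcium handling genes 3 were lower (CASQ2, PLN and SLC8A1, median -0.21), beside the calcium release channel RYR2 at -0.82 ± 0.21 (edgeR adjusted p = 0.0794). Fetal and hypertrophy markers had 0 of 26 called (median -0.41) and sarcomere genes 1 of 33 (NEBL, median -0.17). Single members were called in the lists of ATF4 and amino acid response genes (STC2, 1 of 29), NRF2 and ferritin genes (FTH1, 1 of 17), p53 targets and CDK inhibitors (CDKN2A, 1 of 24), Gq and calcineurin signalling (MYOZ2, 1 of 29), cyclic GMP signalling (PLN, 1 of 14), immediate early genes (IER3, 1 of 22) and interferon and MHC class I genes (B2M, 1 of 19). Other members of these lists were not called. FTL, the ferritin light chain, averaged 0.16 ± 0.14, SLC7A11, the cystine transporter, 1.12 ± 0.34 (edgeR adjusted p = 0.152), and PHGDH, of serine synthesis, 0.55 ± 0.14 (edgeR adjusted p = 0.0960). CDKN1A, another CDK inhibitor, had a negative average like CDKN2A, -0.82 ± 0.20 (edgeR adjusted p = 0.0635). Without vehicle replicate 2 it passed (-0.99 ± 0.17, edgeR adjusted p = 2.64e-04), with opposed contrasts of 0.956 and -2.945. These 4 genes, RYR2, HLA-B and HLA-C were named after their values were seen.

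Without vehicle replicate 2, matrix genes had 1 of 46 higher and 11 lower, fetal and hypertrophy markers 0 of 26 higher and 7 lower, and 7 of 28 targets of YAP, SRF and MRTF were lower with 0 higher, beside 1.69% called of all tested genes. List counts without that library were added after the values were seen. Of the 7 fetal markers, among them NPPA, ACTA2, ANKRD1 and CRYAB, 0 had the same sign in both contrasts, and of the 12 matrix genes 3 had. Fibroblast markers moved beside these lists, at 9010 to 9437 CPM in sum with sacubitrilat against 2789 to 6553 CPM with vehicle, and at 2675 to 5454 CPM in the combined libraries against 8488 to 9452 CPM with endothelin-1, with none of 16 markers at 0 in every library. Smooth muscle and pericyte markers stood at 3523 to 3677 CPM against 683 to 2598 CPM, and at 1111 to 2568 CPM against 4360 to 4430 CPM. The part of these cells in the lists was not tested.

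**Figure D5:**
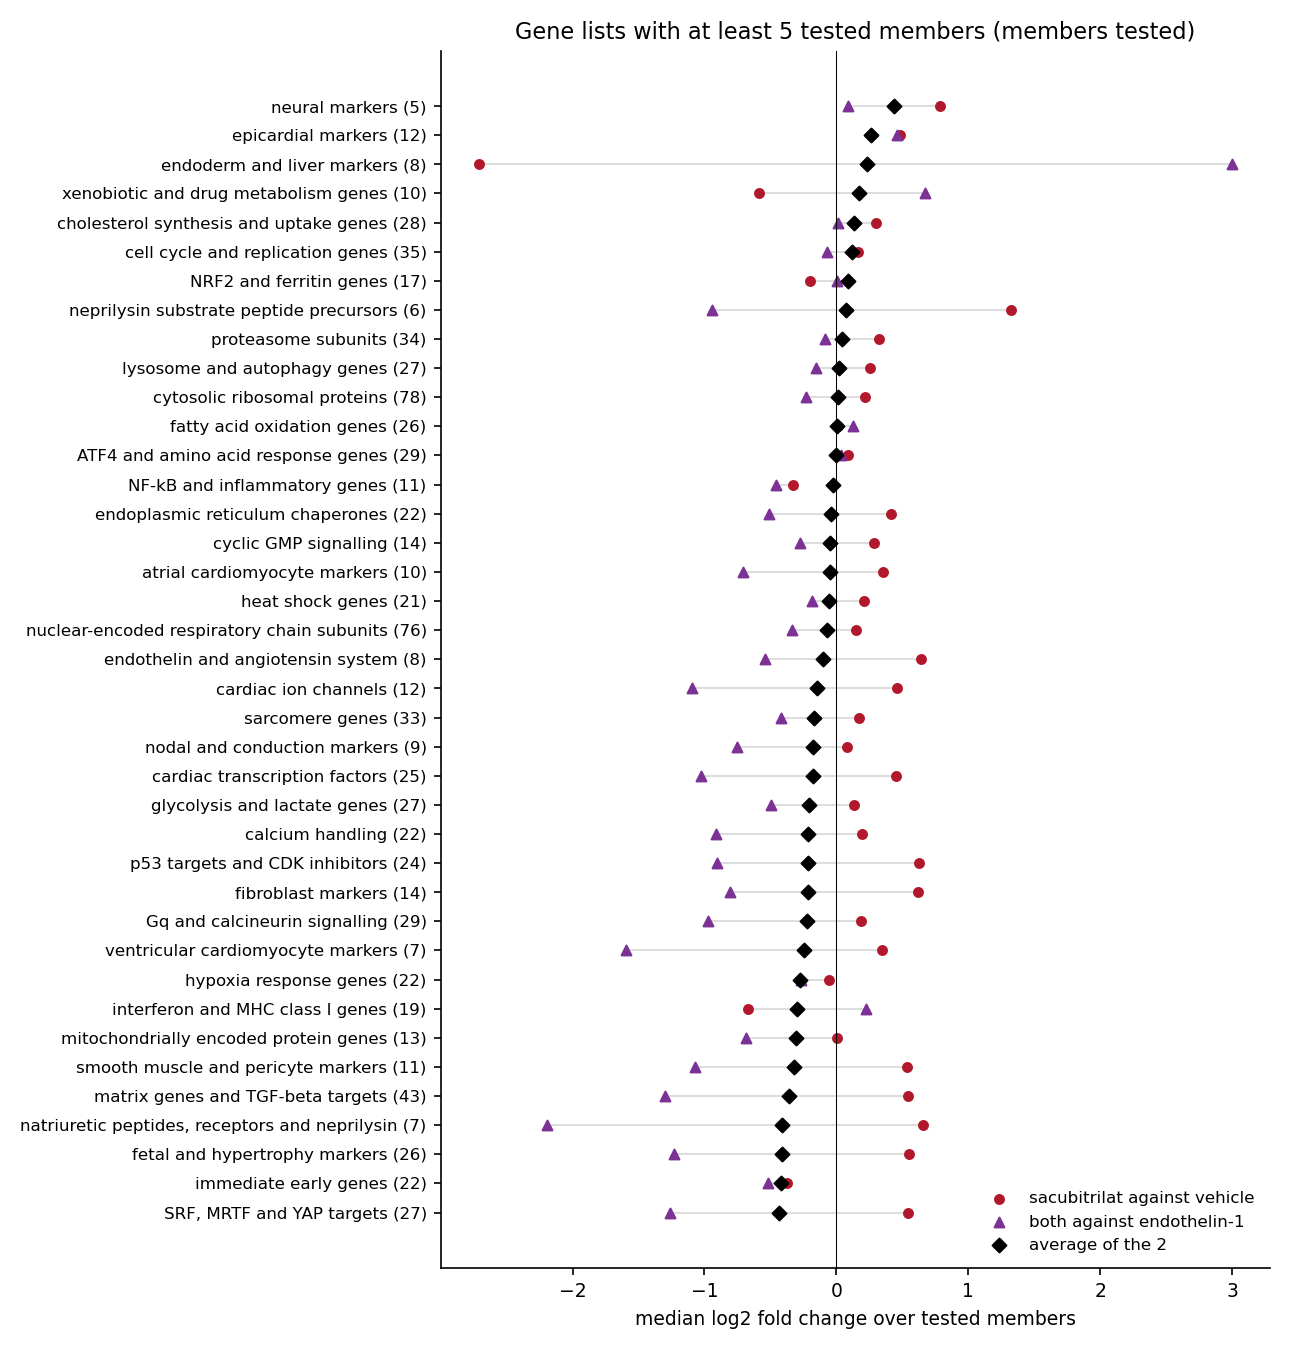
Median log2 fold change over the tested members of each list (number in brackets) with at least 5, for sacubitrilat against vehicle (circles), combined against endothelin-1 (triangles) and the average (diamonds). The circle and the triangle lie on opposite sides of 0 for endoderm and liver markers (-2.71 and 3.00), and the averages of all shown lists lie between -0.44 and 0.44.

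Large housekeeping lists had medians near 0 in the average and narrow intervals. All 78 cytosolic ribosomal protein genes had a 95% interval within a 2-fold change, 0 were called and their median was 0.01. Nuclear-encoded respiratory chain subunits had 0 of 76 called (median -0.07, 71 within the interval) and proteasome subunits 0 of 34 (median 0.04, 32 within it). Cell cycle and replication genes had 0 of 35 called in the average, although 25 were higher with sacubitrilat than with endothelin-1 among deep libraries, where 4.78% of all tested genes were.

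As shares of all counts, genes of the cytosolic ribosome took 8.05%, 7.97% and 8.04% with sacubitrilat against 7.13%, 8.29% and 7.59% with vehicle, and 7.82%, 7.99% and 8.31% in the combined libraries against 6.77%, 6.71% and 6.53% with endothelin-1. The averaged difference was 0.858 percentage points (exact permutation test within endothelin-1 strata, two-sided, p = 0.02, adjusted p = 0.1 over 5 shares, smallest possible p = 0.005). Mitochondrially encoded protein genes took 10.8%, 12.4% and 10.8% with sacubitrilat against 17.4%, 9.83% and 15.1% with vehicle, and 11.1%, 14.0% and 13.0% in the combined libraries against 14.1%, 14.1% and 14.0% with endothelin-1. Their averaged difference of -2.08 points did not pass (same exact test, p = 0.1, adjusted p = 0.25). Without vehicle replicate 2 the exact test gave an adjusted p of 0.025 for both of these shares, with differences of 1.01 and -3.15 points. Mitochondrial ribosomal RNA, endoderm markers and sarcomere genes differed by -1.18, 0.00733 and 0.127 points (exact adjusted p = 0.425, 0.838 and 0.990).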

How the data were processed

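Poly(dT)-primed, UMI-bearing, stranded single-end libraries were read at transcript 3′ ends, per the labels' protocols. The submitters' processing notes name fastp 0.24.0, featureCounts and GRCh38. For the aligner, annotation release, UMI handling and strand setting, nothing is given in the sources used here. The authors deposited estimated counts per gene, partly fractional, and CPM, which equals the count over the library total (largest difference 1.46e-11). Of 78986 features, 36134 had no symbol, and 92 spike-in features held 0 counts.

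Counts were rounded, filtered by group (filterByExpr), scaled by TMM and fitted in 1 model of 4 groups with edgeR 4.0.16 (R 4.3.3, limma 3.58.1). The quasi-likelihood test was adjusted by Benjamini-Hochberg over the 11203 genes kept, with a threshold of 0.05. DESeq2 1.42.0 and limma-voom were alternatives. Shares of counts were tested by exact permutation within endothelin-1 strata (400 arrangements). Counting intervals are 95% exact intervals and, like the floor of 3 counts (1.54 CPM in the deepest and 37.1 CPM in the shallowest library), cover counting error only.

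Groups follow titles and treatment labels. The main fit has no replicate block. The labels give the replicate number under a batch tag without saying what was shared, so the blocked fit is given beside results whose call it changes. The deviations of 18 same-number pairs correlated between -0.146 and 0.0396, with 0 pairs over 0.1. No libraries were duplicates.

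On 1 simulated data set of 11203 genes, the averaged effect recovered 69% of 29 genes with a 2-fold agreeing change. It recovered 88.9% of 36 with a 4-fold and 100% of 35 with an 8-fold agreeing change, with 8.42% false among 95 calls. Changed genes were drawn from those with a mean of at least 20 CPM, and all others had equal means in the 4 groups. Recovery at lower levels, or beside as many opposed genes as found here, was not tested. The genes and lists were chosen with earlier results of these data known. Named were a panel of natriuretic and hypertrophy genes, called genes of shared sign without overlap and with a mean of at least 20 CPM, the 8 leading opposed genes of each orientation, up to 4 called members of each list and the neprilysin list. Other genes are marked as named after their values were seen. Promoter sequences are from RefSeq (GRCh38.p14), and gene positions from GENCODE 29. Genes overlapping on opposite strands (CDKN2A, FTH1, NPPA and PLN among those named), the near-identical MYH6 and MYH7, and genes with processed pseudogenes (FTH1, B2M) are uncertain to the extent that reads were shared.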

Additional observations from a re-analysis of the deposited data

Results flagged for a closer look

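The sacubitrilat effect with endothelin-1 differed from that without it, by the interaction test of edgeR's quasi-likelihood fit, in 50 of 60 tested named genes, and in 5163 of all tested genes (46.1%). In 15 of the 50 the rule that named them, opposed contrasts, fixes this, and the other 35 follow. The same difference is that of shallow from deep libraries, so both cannot be told apart for any of them. On the log2 scale it was -3.56 for NPPA, -6.38 for NPPB, -4.37 for EDN1, -3.69 for EDNRA, -0.822 for MYH6, -2.31 for ACTA1, -3.56 for ACTA2, -2.47 for RCAN1 and -2.55 for ANKRD1 in the hypertrophy panel. In the neprilysin list it was -3.62 for CORIN, -4.10 for FURIN and -1.96 for ECE1. Genes of calcium handling and the sarcomere had -4.64 (PLN), -4.51 (SLC8A1), -3.97 (NEBL) and -3.68 (MYOZ2). Matrix and adhesion genes had -5.55 (CCN2), -2.74 (CCN1), -3.73 (LOX), -2.07 (LTBP1), -2.18 (ITGB1), -2.23 (TGM2), -2.39 (IGFBP7) and 1.76 (ITGA3). The others were -2.94 for TMSB4X, -1.86 for DCBLD2, -3.43 for MLX, -1.63 for BMP4, 1.70 for IER3, 4.33 for MT2A, 2.37 for ARHGAP22, 3.37 for CCDC3, 3.08 for IGDCC3, 3.38 for MCRIP1 and 4.14 for LHX1. A negative value means a lower effect in the presence of endothelin-1. CDKN2A, STC2, FTH1, B2M, CASQ2 and TFPI2 were the called genes without such a difference at an adjusted p under 0.05, which does not show that their effects were equal.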

How the results depend on the processing

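The number of genes tested differed between settings. The count of 29 of 11203 genes in the average was 68 of 40745 with no filter and 16 of 2969 at a mean of at least 50 counts. It was 114 by DESeq2, 7 by limma-voom, 16 with the replicate block, 205 with labels exchanged and 2 in an additive model. After thinning to 80000 counts it was 1 of 1846, and without the 2 libraries under 100000 counts 185 of 13137. With a library left out it was 9 to 231, with 7228 to 14076 genes tested. The count of 4 genes called in the same direction in both contrasts was 1 at that mean (RAN, not among the 4), 0 with library total as covariate, 1 thinned (CCN1, not among the 4), 8 without the 2 libraries and 34 exchanged (1 to 7 with a library left out). The count of 1698 opposed genes among 11203 was 652 of 2969 at that mean, 13 with the covariate and 338 of 1846 thinned (1134 to 1825). The count of 1 depth-matched gene was 8 with no filter, 2 at that mean, 7 by DESeq2, 5 with the covariate, 0 thinned, 18 without the 2 libraries and 7 exchanged (0 to 26). The count of 3 called genes without overlap was 0 at that mean, 0 thinned, 12 without the 2 libraries and 43 exchanged (1 to 17). The cause was not tested. The count of 231 and that of 26 came without vehicle replicate 2.

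Genes near 0 changed sign. MYH6 was 0.0611 at that mean, 0.00419 with the replicate block, 0.0299 with the covariate, 0.00656 in the additive model and -0.157 to 0.0452 with a library left out. ACTA1 was 0.0287 at that mean, 0.217 with the covariate, 0.0269 thinned, 0.0757 additive and -0.525 to 0.164 with a library left out. EDN1 was 0.0504 by limma-voom, 0.0505 with the replicate block and -0.335 to 2.26 with a library left out. NPPB was 0.372 thinned and EDNRA 0.0117 additive. The sarcomere share was -0.297 points without the 2 libraries (-0.376 to 0.446 with a library left out). Shares with a library left out were -3.15 to -1.25 points for mitochondrially encoded genes and 0.723 to 1.01 for ribosomal proteins, whose differences passed without vehicle replicate 2, -1.61 to -0.823 for mitochondrial ribosomal RNA and 0.000467 to 0.0170 for endoderm markers. Among agreeing genes, CDKN2A was called in all 20 alternatives that gave it an adjusted p (-3.01 to -2.44), STC2 in 19 of 21, in the average, FTH1 in 12 of 23 and B2M in 12 of 23.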
